A study of Rattus norvegicus with 4 samples.

Results

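The transporters described here are the ATP-binding cassette (ABC) proteins of the A, B, C and G families and the organic ion carriers of the SLC22 and SLCO families, which move drugs, conjugates, bile acids, carnitine and lipids across membranes. They were chosen by name: every gene probe whose name on the array began with Abca, Abcb, Abcc, Abcg, Slc22a, Slc21a, Slc47a or Slco was taken, apart from the sterol exporters Abcg5 and Abcg8. This gave 80 probes of 67 genes, out of 35632 named genes and unnamed transcripts on the array. A probe is called detected on an array where its spots carry the scanner software's flag for signal clearly over background. Detection in 2 or more of the 4 rats was required, and 48 probes of 40 genes met this, out of 28417 probes in all. No gene name on the array began with Slc47a, so the exporters of that family were not analysed here.

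Small intestine was profiled from 2 compost rats and 2 control rats, with 1 one-colour Agilent array per rat. The compost rats were male Wistar rats whose tap water held 1.0% (v/v) of an extract made by diluting fermented compost in water and warming it, given for 12 weeks from 3 weeks of age. The control rats were male Wistar rats of the same age that drank tap water alone. Wistar is an outbred stock, all Peyer's patches had been excluded from the tissue, and the labels do not give the segment of the small intestine that was taken. The comparison asks how the extract, taken by mouth, alters gene expression in the gut wall.

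The enterocytes that line the small intestine carry such transporters on both faces. On the side of the lumen, exporters such as P-glycoprotein, MRP2 and BCRP return drugs and conjugates to the gut contents, while uptake carriers such as OCTN2 and OATP2B1 bring carnitine, organic anions and many oral drugs into the cell. On the side of the blood, exporters such as MRP1 and MRP3 pass compounds on to the circulation.

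Across the 4 arrays the median intensity of gene spots lay between 80.8 and 113, the share of gene spots detected was 66.5% to 71.0%, and no transporter probe was saturated. Pearson's r between arrays, across the 28417 probes kept, was 0.981 for the compost pair, 0.986 for the control pair and 0.981 to 0.988 between the groups. Probes are not independent replicates. The 4 arrays of the slide held the groups in order of position, so position and group cannot be told apart. The enterocyte markers that define the tissue were present: all 15 genes of an absorptive enterocyte list were measured. Of 7 hepatocyte genes, Alb and Ahsg were detected on fewer than 2 arrays, and the other 5, with Ttr, Apob, Serpina1 and Fgb detected on all 4, were measured. All values below are log2 processed intensities minus the 75th percentile of the array, called log2 scaled intensities, and differences are compost minus control with the standard error (SE) of the limma model.

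More of the transporter probes were lower than higher in the compost rats, and none passed the test. In limma's test, with p-values adjusted across every probe kept by Benjamini and Hochberg's method, 0 of the 48 transporter probes were below 0.05, each with adjusted p = 1.00, and the share of all 28417 probes that passed was 0%. At an unadjusted p under 0.05 there were 2 lower transporter probes, 4.17% against 1.8% of all probes, and 1 higher one, 2.08% against 1.41% of all probes. A limma fit with a variance trend and robust estimation also called 0.

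Counted without a test, the higher compost rat was still below the lower control rat in 14 of the 48 transporter probes, which were 29.2%, against 15.5% of all probes. The 14 probes stood for 12 genes. The reverse, with each compost rat above each control rat, held in 3 probes of 3 genes, which were 6.25%, against 12.4% of all probes. In the other 31 probes the rats of the groups overlapped. The median difference was -0.09 over the transporter probes and -0.02 over all probes, but without control rat 1 it was -0.02 over the transporter probes and -0.04 over all probes. In all, 30 of the 48, or 62.5%, were below 0, against 53.8% of all probes. Of the transporter probes, 47 differed by less than 2-fold. Absorptive enterocyte markers were also lower (14 of 15, with Lct and Alpi detected in the control rats alone). In bulk tissue fewer cells of a type and less RNA per cell cannot be told apart.

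**Figure D1:**
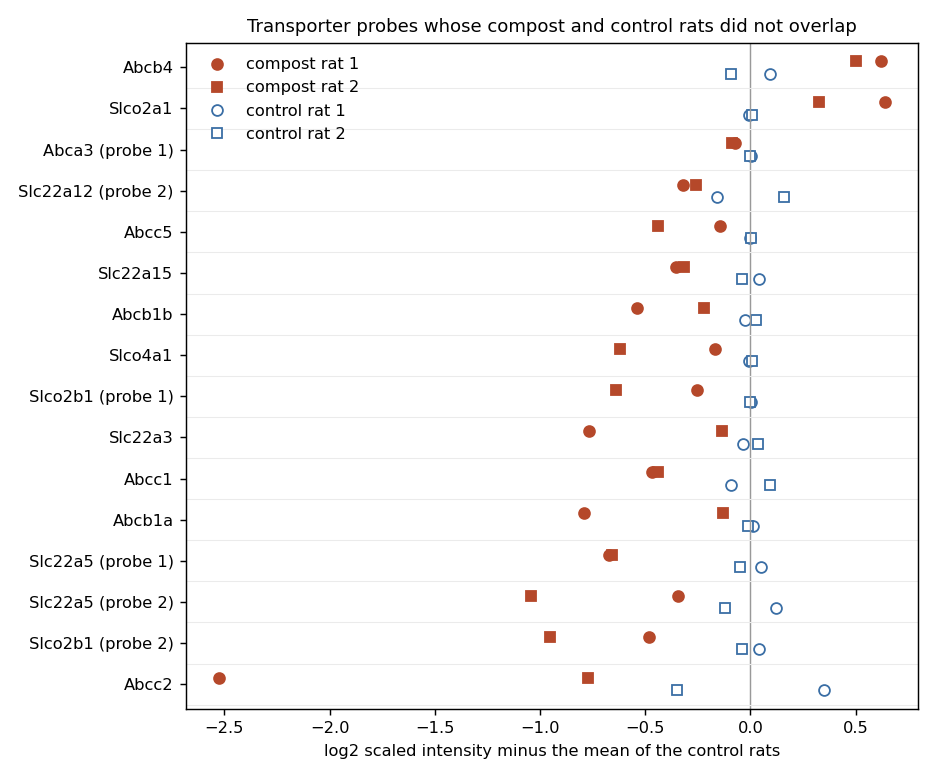
Each row is a named transporter probe whose rats did not overlap between the groups, and the horizontal axis gives the log2 scaled intensity of each rat minus the mean of the control rats; filled symbols are the 2 compost rats and open symbols the 2 control rats, circles for rat 1 and squares for rat 2. Abcc2, in the bottom row, lies at -2.52 in compost rat 1 and -0.77 in compost rat 2, while Abcb4 and Slco2a1 lie to the right of the control rats.

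These separated shares moved when a rat was left out, since 3 arrays separate more readily than 4. Without compost rat 1 the share below was 47.9% of transporter probes against 34.4% of all probes, and without control rat 2 it was 52.1% against 29.0%. The gap to the background was smaller without compost rat 2, at 47.9% against 42.7%, and without control rat 1, at 33.3% against 29.1%. In those last 2 settings the transporters' share lay near that of all probes.

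**Figure D2:**
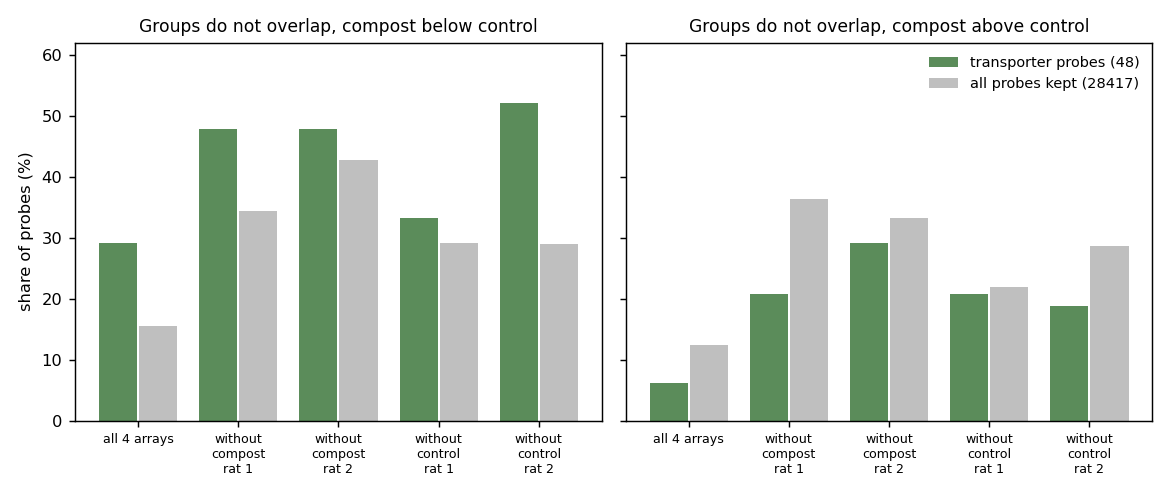
Bars give the share of probes, in percent, whose compost and control rats did not overlap, on the left with compost below control and on the right with compost above control, for the 48 transporter probes (green) and all 28417 probes kept (grey), with all 4 arrays and without each rat in turn. The green bar is the taller on the left in every setting and the shorter on the right in every setting, with gaps of under 6 percentage points on the left without compost rat 2 and without control rat 1.

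Among the multidrug exporters, 8 of 12 probes were lower in compost and 4 higher, with a median of -0.22. In 5 of the 12 the higher compost rat was below the lower control rat, against 15.5% of all probes. Abcc2, which encodes MRP2, the apical exporter of glutathione and glucuronide conjugates, had log2 scaled intensities of -1.78 and -0.03 in the compost rats, against 1.09 and 0.40 in the control rats. Both compost rats were lower than both control rats, with compost rat 1 far below compost rat 2. The difference was -1.65 ± 0.64 SE, or 3.14-fold lower, the only one of 2-fold or more among the transporter probes. It was -0.77 without compost rat 1 and -2.52 without compost rat 2.

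Abcb1a and Abcb1b encode the rodent P-glycoproteins, which pump hydrophobic drugs out of cells. Abcb1a had values of 2.46 and 3.12 in the compost rats, against 3.27 and 3.24 in the control rats. Abcb1b had values of 0.30 and 0.62 in the compost rats, against 0.82 and 0.86 in the control rats. For both genes the compost rats were lower, with compost rat 1 the lowest of the 4 rats, and the differences were -0.46 ± 0.28 SE and -0.38 ± 0.20 SE. Without compost rat 1 the difference for Abcb1a was -0.13. The 2 genes are close paralogs whose probe sequences were not used here, so signal shared between their probes was not tested.

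Abcc1, the basolateral exporter MRP1, had values of 0.87 and 0.90 in the compost rats, against 1.25 and 1.43 in the control rats. The compost rats lay close together and below both control rats, with a difference of -0.45 ± 0.18 SE (-0.55 to -0.36 without 1 rat). Abcc5, an exporter of cyclic nucleotides and other anions, had values of 2.55 and 2.25 in the compost rats, against 2.69 and 2.70 in the control rats (-0.29 ± 0.20 SE, and -0.15 without compost rat 2). The remaining exporters overlapped between the groups. Abcg2, which encodes BCRP, the breast cancer resistance protein of the apical membrane, had values of 5.42 and 5.80 in the compost rats, against 5.83 and 5.68 in the control rats (-0.14 ± 0.22 SE). Abcc6, whose loss causes ectopic mineralisation in humans, differed by -0.39 ± 0.29 SE, with -0.06 without compost rat 1 and -0.71 without compost rat 2.

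Abcc3, the basolateral exporter MRP3, did not follow Abcc2. Its first probe had values of 2.44 and 3.02 in the compost rats, against 2.32 and 2.88 in the control rats (0.13 ± 0.32 SE). The second probe had values of 0.85 and 0.90 in the compost rats, against 0.27 and 0.90 in the control rats (0.29 ± 0.27 SE). The groups overlapped in both. The 2 kept probes of Abcc4, an exporter of cyclic nucleotides and conjugates, differed by -0.06 ± 0.24 SE and 0.16 ± 0.36 SE, with the second probe detected in 1 compost rat and 1 control rat. Abcc10 differed by 0.07 ± 0.34 SE.

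The organic cation and carnitine carriers had 5 of 6 probes lower in compost and 1 higher, with a median of -0.56. In 4 of the 6 the higher compost rat was below the lower control rat, against 15.5% of all probes. These 4 include both kept probes of Slc22a5, so they stand for fewer genes than probes. Slc22a5 encodes OCTN2, the sodium-dependent carnitine carrier, which supplies the cofactor of long-chain fatty acid oxidation. Its first probe had values of 0.03 and 0.04 in the compost rats, against 0.75 and 0.65 in the control rats. The second had values of -1.12 and -1.82 in the compost rats, against -0.65 and -0.89 in the control rats. Both probes of the gene thus put the compost rats below the control rats, by -0.67 ± 0.17 SE and -0.70 ± 0.30 SE (the second -1.05 to -0.35 without 1 rat). The first ranked lowest by limma's unadjusted p among the transporter probes, with an adjusted p = 1.00. It was also the only probe whose nearest rats of the groups lay at least 0.5 log2 units apart (0.61). Its difference lay between -0.72 and -0.62 without 1 rat.

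Slc22a4, which encodes the ergothioneine carrier OCTN1, had values of -3.39 and -3.11 in the compost rats, against -1.34 and -3.24 in the control rats. Control rat 1 alone was high, and control rat 2 lay between the compost rats. The difference of -0.96 ± 0.65 SE was -0.01 without control rat 1. Slc22a3, the organic cation transporter OCT3, had values of -0.27 and 0.36 in the compost rats, against 0.46 and 0.53 in the control rats. Both compost rats were lower, chiefly compost rat 1, and the difference of -0.45 ± 0.27 SE was -0.14 without that rat. Slc22a15 had values of -3.86 and -3.82 in the compost rats, against -3.47 and -3.55 in the control rats (-0.33 ± 0.17 SE, and -0.23 with normexp background correction).

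**Figure D3:**
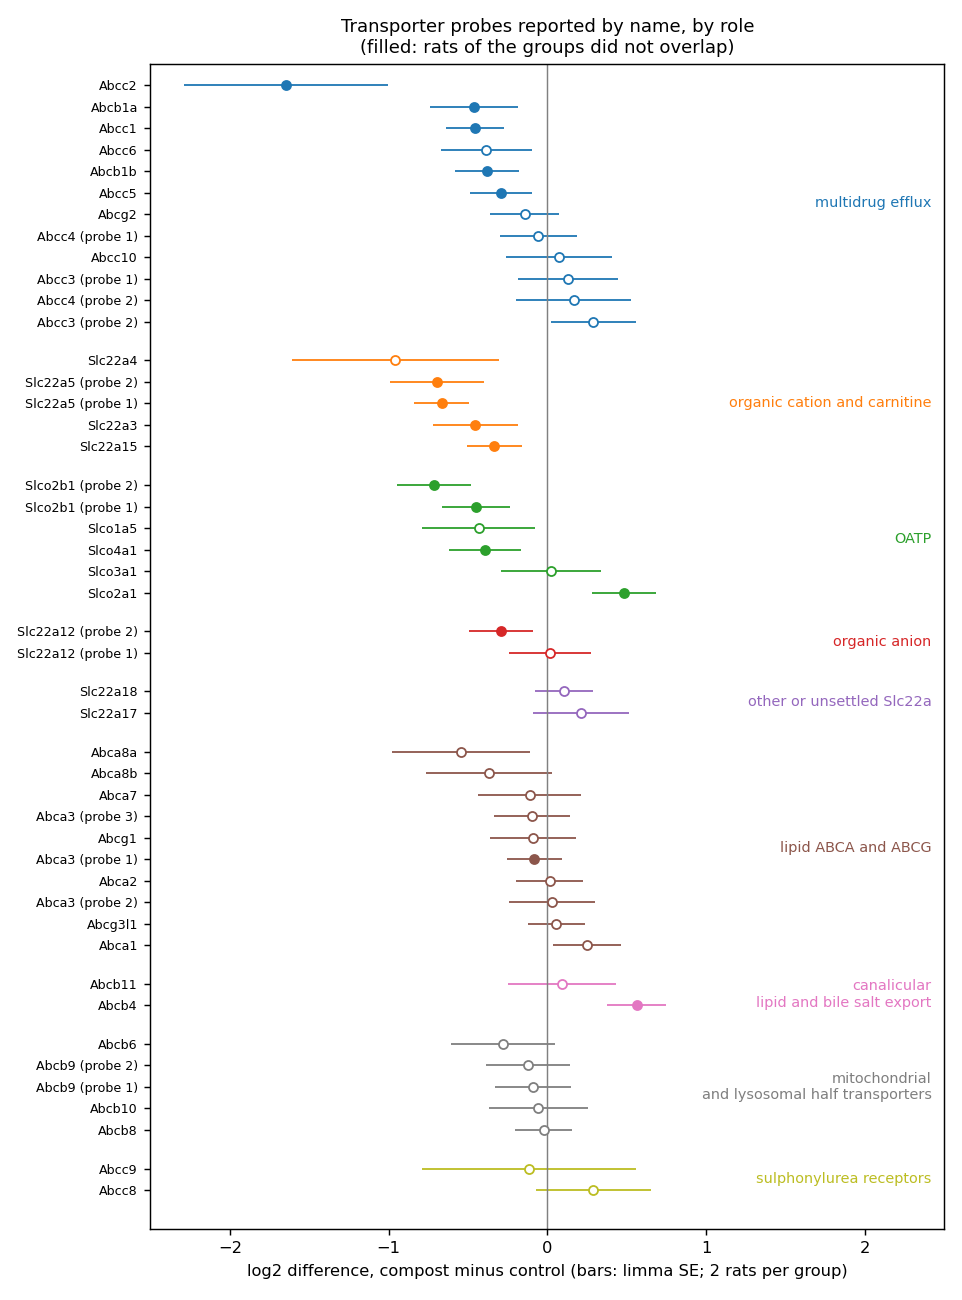
Points give the log2 difference, compost minus control, of the transporter probes reported by name, grouped by role, with bars for the limma standard error (2 rats per group) and filled points where the rats of the groups did not overlap. Most filled points lie left of 0 among the exporters, the organic cation and carnitine carriers and the organic anion transporting polypeptides, while the lipid ABC transporters lie around 0.

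The organic anion transporting polypeptides (OATPs) were split by gene. Slco2b1 encodes OATP2B1, a broad intestinal uptake carrier of steroid sulphates and oral drugs. Its first probe had values of 0.75 and 0.37 in the compost rats, against 1.01 and 1.00 in the control rats, and the second had -0.00 and -0.48 in the compost rats, against 0.51 and 0.44 in the control rats. Both probes put the compost rats below the control rats, by -0.45 ± 0.21 SE and -0.72 ± 0.23 SE, here with compost rat 2 the lower of the pair. The first probe differed by -0.26 without compost rat 2. Slco4a1, a carrier of thyroid hormones and prostaglandins, had values of -1.79 and -2.24 in the compost rats, against -1.63 and -1.61 in the control rats (-0.39 ± 0.23 SE, and -0.17 without compost rat 2).

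Slco2a1 went the other way. It encodes the prostaglandin transporter, which takes up prostaglandins for breakdown. Its values were -1.75 and -2.06 in the compost rats, against -2.40 and -2.38 in the control rats. Both compost rats were higher, with a difference of 0.48 ± 0.20 SE, or 1.40-fold, and 0.33 without compost rat 1. Slco3a1 overlapped (0.02 ± 0.31 SE). Slco1a5, known in the rat as a bile acid carrier of the jejunal brush border, was detected in 1 compost rat and both control rats, with values of -5.61 and -5.15 in the compost rats, against -4.54 and -5.36 in the control rats. The groups overlapped, and the difference was -0.43 ± 0.35 SE (-0.02 without control rat 1).

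**Figure D4:**
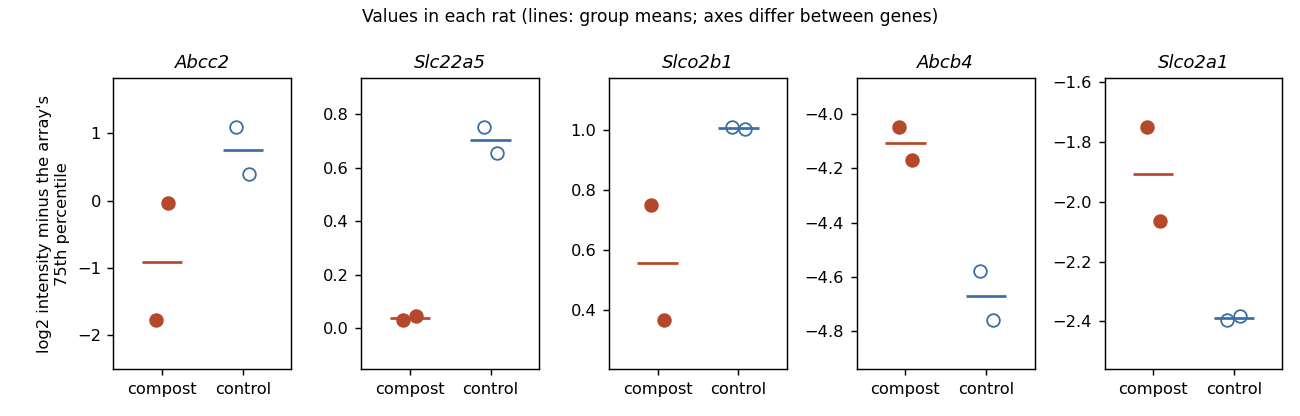
Points give the log2 scaled intensity of each rat, compost on the left and control on the right of each panel, with lines at the group means, for Abcc2, Slc22a5 and Slco2b1 (first probes) and for Abcb4 and Slco2a1; the vertical axes differ between panels, and levels of different genes cannot be set against each other. The compost rats lie below the control rats in the first 3 panels and above them in the last 2.

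The upstream sequence is shown for the separated genes in which the transcript of the RefSeq table begins at the outer edge of the gene, so that the window holds no transcribed base. These were 3 of the 15 separated genes, of which 13 had a window in the table. Abcc2 and Slc22a3 were lower in the compost rats and Slco2a1 higher. Each sequence is the 250 bases before the start on the plus strand of the GRCr8 assembly, from RefSeq, and capitals mark matches to the motifs searched. The windows are chr1:252613625-252613874 for Abcc2, chr1:50782968-50783217 for Slc22a3 and chr8:112467489-112467738 for Slco2a1.
Abcc2: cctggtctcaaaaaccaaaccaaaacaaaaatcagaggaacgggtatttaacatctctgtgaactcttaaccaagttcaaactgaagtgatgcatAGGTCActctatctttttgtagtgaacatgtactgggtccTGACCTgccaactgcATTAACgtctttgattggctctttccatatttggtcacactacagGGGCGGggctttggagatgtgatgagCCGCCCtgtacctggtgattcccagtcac
Slc22a3: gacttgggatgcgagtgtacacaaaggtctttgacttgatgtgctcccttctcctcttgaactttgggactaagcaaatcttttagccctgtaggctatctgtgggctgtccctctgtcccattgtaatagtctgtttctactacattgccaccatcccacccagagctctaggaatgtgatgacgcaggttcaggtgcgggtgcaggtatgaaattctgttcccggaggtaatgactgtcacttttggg
Slco2a1: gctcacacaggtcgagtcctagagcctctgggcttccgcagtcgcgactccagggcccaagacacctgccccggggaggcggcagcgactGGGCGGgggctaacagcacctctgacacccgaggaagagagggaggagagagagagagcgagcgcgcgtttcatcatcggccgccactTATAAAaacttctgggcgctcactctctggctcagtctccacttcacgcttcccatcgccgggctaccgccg

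In these windows 6 motifs were searched on both strands: the nuclear receptor hexamer AGGTCA, the HNF1 core GTTAAT, the GC box GGGCGG, the TATA box TATAAA, the E-box CACGTG and the antioxidant response core TGACNNNGC. The Abcc2 window held AGGTCA on each strand, GTTAAT on the minus strand and GGGCGG on each strand. The Slco2a1 window held GGGCGG and TATAAA, both on the plus strand, and the Slc22a3 window held none of the 6. No matches overlapped. Among 33469 windows of the same length, 14.1% held AGGTCA, 6.45% GTTAAT, 30.5% GGGCGG, 12.9% TATAAA, 5.59% CACGTG and 10.1% TGACNNNGC. Of the 40 genes kept, 31 had a window, and 23 of these held GGGCGG, 3 AGGTCA, 3 TATAAA, 2 CACGTG, 1 GTTAAT and 1 TGACNNNGC. A match describes the letters of the window and no more.

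Abcb4 and Abcb11 are the canalicular exporters of phosphatidylcholine and bile salts in the liver. Abcb4 had values of -4.05 and -4.17 in the compost rats, against -4.58 and -4.76 in the control rats. Both compost rats were higher, with a difference of 0.56 ± 0.19 SE, or 1.48-fold, the highest of the transporter probes. It ranked lowest by limma's unadjusted p among the higher probes, with an adjusted p = 1.00. With normexp background correction it was 0.11 and the rats overlapped. On chromosome 4 of the GRCr8 assembly Abcb4 is the neighbour of Abcb1b, which is the neighbour of Abcb1a, so adjacent genes of 1 family differed in sign. Abcb11 overlapped (0.09 ± 0.34 SE).

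The lipid transporters of the ABCA and ABCG families lay around 0, with 4 probes higher and 6 lower, a median of -0.09 and 1 probe separated. Abca1, which loads cholesterol and phospholipid onto apolipoprotein A1, had values of -2.84 and -3.21 in the compost rats, against -3.34 and -3.20 in the control rats (0.25 ± 0.22 SE). Abcg1, which passes cholesterol to high-density lipoprotein, differed by -0.09 ± 0.27 SE, Abca7 by -0.11 ± 0.32 SE and Abca2 by 0.01 ± 0.21 SE. The groups overlapped in these 4 genes. Abca3, the surfactant lipid transporter of the lung, had 3 kept probes. The first was separated by a small difference of -0.08 ± 0.17 SE, and the others overlapped at 0.03 ± 0.27 SE and -0.10 ± 0.24 SE. Abca8a and Abca8b differed by -0.54 ± 0.43 SE and -0.37 ± 0.40 SE, both with compost rat 2 the lowest of the 4 rats, and Abca8a was detected in 1 compost rat and both control rats. Abcg3l1, named Abcg3 on the array, differed by 0.06 ± 0.18 SE.

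The ABCB transporters of mitochondria and lysosomes also lay near 0, with 1 probe higher and 5 lower and a median of -0.07. Abcb6, a porphyrin transporter, differed by -0.28 ± 0.33 SE. Abcb8, Abcb10 and the 2 probes of the lysosomal peptide transporter Abcb9 differed by -0.12 to -0.02, all with overlap.

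The sulphonylurea receptors Abcc8 and Abcc9, which regulate ATP-sensitive potassium channels, overlapped. Abcc9 showed the widest spread within a group among the transporter probes, at -0.85 and -2.83 in the compost rats, against -1.80 and -1.64 in the control rats. Its difference of -0.12 ± 0.67 SE was 0.87 without compost rat 2 and -1.11 without compost rat 1. Abcc8 had values of -3.76 and -4.54 in the compost rats, against -4.72 and -4.16 in the control rats (0.29 ± 0.36 SE). The urate carrier gene Slc22a12 had 1 probe that overlapped (0.02 ± 0.26 SE) and 1 that was lower in both compost rats (-0.29 ± 0.20 SE, with overlap under normexp background correction), so its probes did not give the same result. Slc22a17, a lipocalin receptor, and Slc22a18 differed by 0.21 ± 0.30 SE and 0.10 ± 0.18 SE, both with overlap.

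The 2 compost rats differed from each other more than the control rats did. The median absolute difference over the transporter probes was 0.44 between the compost rats and 0.18 between the control rats, against 0.31 and 0.18 over all probes kept. Before scaling, the median intensity of gene spots was 113 and 80.8 on the compost arrays, against 88.4 and 87.2 on the control arrays. With 1 array per rat, rat and array cannot be told apart. Compost rat 1 was the lower of the pair for Abcc2, Abcb1a, Abcb1b and Slc22a3, and compost rat 2 for Slco2b1, Slco4a1, Abcc5 and the second probe of Slc22a5.

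The other 27 genes, with 31 of the 32 probes not kept, gave no comparison; the remaining probe was the second one of Abcb11. Of the 32 probes, 30 were detected on 0 arrays and 2 on 1 array, namely the probe of Slc22a7 and 1 of Abca15. The genes include Slc22a6 and Slc22a8, the renal organic anion transporters OAT1 and OAT3, Slc22a2, the renal organic cation transporter OCT2, and Slco1b2 and Slco1a1, uptake carriers known from the rat liver. The other OATP genes not detected were Slco1a3 (Slc21a4 on the array), Slco1a4, Slco1a6, Slco1c1, Slco4c1, Slco5a1, Slco6b1 and Slco6c1. Of the SLC22 family, Slc22a7, Slc22a14, Slc22a24 (Slc22a19 on the array) and Slc22a25 (Slc22a9 on the array) also fell short. The ABC genes were Abca4, the retinoid transporter of photoreceptors, Abca12, the lipid transporter of skin, Abca5, Abca6, Abca9, Abca13, Abca15, Abca17, Abcc12 and Abcg4. No transporter probe was detected in both rats of a group and in neither rat of the other.

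Among genes known to act with these transporters none passed limma's test. Over all genes, each by its probe with the highest mean, the median was -0.02. Of 14 measured factors that sense xenobiotics, sterols or bile acids or drive enterocyte transporters, 5 were higher and 9 lower, with a median of -0.06. Nr1i2, the xenobiotic sensor PXR, had values of 2.69 and 2.88 in the compost rats, against 3.01 and 2.94 in the control rats (-0.19 ± 0.18 SE). Nr1h4, the bile acid sensor FXR, had values of 0.90 and 0.72 in the compost rats, against -0.27 and 0.68 in the control rats. Control rat 1 alone was low, and the difference of 0.60 ± 0.36 SE was 0.13 without it. Ppara, the lipid sensor, differed by -0.22 ± 0.19 SE. Of 4 measured scaffold genes that hold carriers at the apical membrane, 1 was higher and 3 lower, with Pdzk1, which binds OCTN2, at -0.34 ± 0.28 SE (-0.04 without compost rat 1). The 12 other ABC genes had a median of -0.14, with 4 higher and 8 lower.

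Of 11 other drug and bile acid carriers, 7 were higher and 4 lower, with a median of 0.05. Slc15a1, the peptide and beta-lactam carrier PEPT1, had values of 6.27 and 6.58 in the compost rats, against 6.92 and 6.70 in the control rats (-0.38 ± 0.21 SE). The ileal bile acid carriers Slc10a2, Slc51a and Slc51b differed by 0.30 ± 0.36 SE, 0.05 ± 0.19 SE and 0.21 ± 0.23 SE, all with overlap, and Slc10a2 by -0.11 without control rat 1. Slc46a1, the folate carrier of the proximal intestine, had values of -3.65 and -3.89 in the compost rats, against -0.66 and -3.57 in the control rats, with control rat 1 alone high, as in Slc22a4. Its difference of -1.66 ± 0.97 SE was -0.20 without that rat.

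Of the cell type markers, 0 passed limma's test with adjustment over all probes. As background to the marker counts by direction, 53.8% of all probes kept were lower in compost. Of the 15 absorptive enterocyte genes, 14 were lower and 1 higher in compost, 11 had both compost rats below both control rats, against 15.2% of all genes, and the median was -0.46. The summed scaled intensity of that list was 1473 and 1873 in the compost rats, against 2517 and 2081 in the control rats. Lactase (Lct) and the intestinal alkaline phosphatase Alpi were detected in both control rats and in 0 compost rats. They thus entered these counts through the control rats alone. Of 7 proximal small intestine genes 5 were lower (median -0.27), with summed intensities of 427 and 508 in the compost rats, against 594 and 560 in the control rats. Fabp1 and Lct also stand in the enterocyte list, and Fabp1 made up most of these sums. Of 7 distal genes 4 were lower (median -0.17), with 1183 and 1630 in the compost rats, against 1569 and 1508 in the control rats. The groups did not overlap in 4 of the 7 proximal genes, each lower in compost: Cyp3a9, Slc46a1, Fabp1 and Lct. In all 7 distal genes the groups overlapped. The part of these cell type markers in the lower transporter values was not tested.

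Markers of immune, muscle and vessel cells mostly had higher means in compost, but most of the macrophage, muscle and vessel genes overlapped between the groups. All 6 measured B cell genes were higher, with a median of 1.57. Their summed intensities were 2.09 and 2.37 in the compost rats, against 0.523 and 0.695 in the control rats. Ms4a1 was detected in both compost rats and in 0 control rats, so it entered this count through the compost rats alone. Macrophage genes were higher in 9 of 10 cases (median 0.49), smooth muscle genes in 6 of 6 (median 0.15) and endothelial genes in 6 of 7 (median 0.11). All 6 B cell genes had both compost rats above both control rats, against 12.7% of all genes. This held for 2 of 10 macrophage, 1 of 6 smooth muscle and 1 of 7 endothelial genes. The macrophage sums were 354 and 255 in the compost rats, against 275 and 358 in the control rats, with the groups overlapping. Lyz2 made up most of these sums and, unlike the other macrophage genes, was lower in compost (-0.20 ± 0.28 SE). The smooth muscle sums were 241 and 213 in the compost rats, against 187 and 220 in the control rats. The endothelial sums, mostly from Kdr, were 19.0 and 13.5 in the compost rats, against 20.9 and 10.5 in the control rats. Pecam1 likewise entered the endothelial count through the compost rats alone. Of the enteric neuron and glia genes 1 of 7 was higher (median -0.12), and of the Paneth cell genes 2 of 3 (median 0.45). Of the 5 measured genes of the hepatocyte list 4 were lower (median -0.34). Their summed intensities, nearly all from Apob and Ttr, were 171 and 222 in the compost rats, against 315 and 231 in the control rats. Of the lower genes, Cyp2c11 was detected in the control rats alone. Of 7 pancreatic acinar genes 4 were measured, 1 higher and 3 lower (median -0.27). The higher one, the trypsinogen gene Prss1, had values of -2.76 and -2.77 in the compost rats, against -5.70 and -4.00 in the control rats (2.08 ± 0.59 SE). Prss1 was detected in both compost rats and in only 1 control rat. The part of these markers in the higher Slco2a1 and Abcb4 values was not tested.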

How the data were processed

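Intensities were deposited by the authors as Agilent Feature Extraction 9.1.3.1 output, per the file headers: the processed intensity is detrended and background-subtracted on a linear scale and is not scaled between arrays. The authors' deposited value table holds the same intensities, rounded, within 0.5% of the scanner values; its column medians were 102 and 73.9 for compost and 80.2 and 79.4 for control. Per the file headers, flags mark spots well above background, saturated or outlying.

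Control spots and outlier spots (7 to 11 per array) were left out, log2 values of replicate spots were averaged, and each array's 75th percentile was taken off. Probes detected on 2 or more arrays were fitted with limma 3.58.1 in R 4.3.3 (lmFit, eBayes, two-sided, Benjamini-Hochberg over 28417 probes, threshold 0.05). A probe was called detected on an array where a fraction of at least 0.5 of its spots carried the flag for signal over background. The fit was tested on simulated data. Names were updated from the GRCr8 gene table, used for names and order only: of the 80 transporter probes, 59 matched by accession, 19 by symbol, 1 by synonym and 1 kept its name. Genes with several probes keep each probe, ranked by mean intensity. Values were named for a fixed list of 30 transporters, 27 of them measured, for the 6 transporter probes with the smallest unadjusted p in each direction, and for those dim in 1 group only (none). A few measured genes stand in the counts but are not reported by name here. The members and lists were chosen with earlier results of these data known. The labels treat the arrays as individual rats; the number of arrays limits the precision.

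Replicate numbers in the titles were not taken as pairs: the difference between replicates 1 and 2 of compost correlated with that of control at r = -0.04 across probes.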

Additional observations from a re-analysis of the deposited data

How the results depend on the processing

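The precision is limited by 2 rats per group and, for dim probes such as those of Abcb4 and Slc22a15, by signal near background. No transporter probe passed limma's test under any of the 12 alternatives (lowest adjusted p = 0.435, without control rat 2). Leaving out a rat leaves a group with 1 array, assumed to vary like the other group, so those p-values rest on the spread of 2 rats. Without a filter on dim probes 6 probes lay above (7.5%, against 11.4% of all probes). Otherwise the counts of separated probes, 14 below and 3 above, stayed within 1.5 times with all 4 arrays. Leaving out 1 rat gave 16 to 25 below (33.3% to 52.1%, against 29% to 42.7% of all probes). It gave 9 to 14 above (18.8% to 29.2%, against 22% to 36.4% of all probes), a smaller share than that of all probes each time. Lower probes with an unadjusted p under 0.05 numbered 5 with normexp background correction (10.4%, against 1.56% of all probes) and 4 with a variance trend (8.33%, against 1.69%). Without 1 rat they numbered 0 to 8: 0 without control rat 1 (0.996% of all probes), 2 without control rat 2 (4.17%, against 2%), 7 without compost rat 2 (14.6%, against 5.94%) and 8 without compost rat 1 (16.7%, against 3.6%). Higher ones numbered 2 with quantile scaling (4.17%, against 1.66% of all probes), 0 with normexp, 0 without a filter, 0 with a variance trend and 0 with the replicate block, settings in which 1.24% to 1.51% of all probes were called, and 0 to 4 without 1 rat (4 without compost rat 2, or 8.33%, against 4.4%). The median difference of -0.09 lay between -0.21 and -0.02 without 1 rat, below that of all probes except without control rat 1. With the replicate block, 0 probes passed and the lower count was 3. The labels do not say whether the replicate numbers pair the rats. All arrays lay on 1 slide, so no slide block could be fitted.

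Of the 40 genes, each by its first probe, 20 kept their direction under every alternative run, 14 lower and 6 higher in compost. The lower ones include Slco1a5, run under 11 alternatives since it was not detected on all 4 arrays. With all 4 arrays, the sign turned for Abca2 under quantile scaling (-0.000863) and for Abcc10 (-0.0396) and Slc22a12 (-0.00593) with normexp. Without 1 rat, ranges that crossed 0 were -0.17 to 0.20 for Abca2, -0.48 to 0.26 for Abca7, -1.14 to 0.0592 for Abca8a, -0.89 to 0.16 for Abca8b, -0.43 to 0.32 for Abcb10, -0.28 to 0.46 for Abcb11, -0.70 to 0.14 for Abcb6, -0.11 to 0.0580 for Abcb8, -0.31 to 0.13 for Abcb9, -0.36 to 0.50 for Abcc10, -0.16 to 0.42 for Abcc3, -0.27 to 0.16 for Abcc4, -0.11 to 0.68 for Abcc8, -1.11 to 0.87 for Abcc9, -0.41 to 0.23 for Abcg1, -0.34 to 0.0499 for Abcg2, -0.0257 to 0.14 for Abcg3l1, -0.21 to 0.25 for Slc22a12, -0.17 to 0.59 for Slc22a17 and -0.32 to 0.37 for Slco3a1. The cause was not tested.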
